A study of Gossypium hirsutum and Gossypium barbadense with 16 samples.

Results

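Cotton fibers are single cells that grow out of the outer layer of the ovule around the day of flowering, and only some cells of that layer become fibers. MYB transcription factors of the MIXTA type act in the outgrowth of plant epidermal cells, and GhMYB25 is known to promote fiber initiation in cotton. Auxin acts on genes through auxin response factors (ARFs), some of which activate and others repress transcription. Here the epidermal cells of GhTM-1, which forms fibers, were compared with those of the fiberless mutant GhMD17 on the day of anthesis (0 days post anthesis, 0 DPA). The comparison used 4 of the 16 libraries of the series, chosen by their labels as 2 replicates of GhTM-1 and 2 of GhMD17.

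Both lines are *Gossypium hirsutum*, allotetraploid upland cotton with an A and a D subgenome. GhTM-1 is the wild-type accession, and GhMD17 is a naked-seed mutant with neither lint nor fuzz fibers that arose naturally. All plants were untreated and grown in a greenhouse. The epidermal layer was cut from fixed ovules by laser-capture microdissection (LCM), and polyA RNA was sequenced. At 0 DPA a single cut took the top layer, so that the GhTM-1 libraries hold the emerging fiber cells together with the other epidermal cells. The fraction of fiber cells in a library is not given, and in such bulk samples fewer cells of a type and less RNA per cell cannot be told apart. GhMD17 is a separate line of *G. hirsutum* background, so the absence of fibers and any other difference between the lines cannot be told apart either.

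Libraries of 2 DPA served to read the same genes again. They were GhTM-1 and GhMD17 epidermal cells and GhTM-1 fiber cells, with 2 replicates each. Values are FPKM, a fragment count corrected for transcript length and library size, for 75376 genes, of which 57469 were above 0 in at least 1 of the 10 *G. hirsutum* libraries and were tested. Read counts were not used here, so how precisely a single gene was counted is unknown. In the read table of the study, replicate 1 of GhMD17 at 0 DPA was the deepest library and replicate 2 the shallowest. Between 37349 and 38975 genes exceeded 1 FPKM in each of the 4 libraries. Genes listed at 0 numbered 24220 in GhMD17 replicate 1 and 30683 in replicate 2, against 27321 and 26312 in GhTM-1. Across genes, log2(FPKM + 1) correlated at 0.951 between the replicates of either line and at 0.909 to 0.922 between lines.

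Calls required an unadjusted P under 0.01 in the limma contrast of the lines (two-sided), more than 5 FPKM on average in the higher line and means that differed by a ratio over 1.5. By these limits 2014 genes (3.5% of those tested) were higher in GhTM-1 and 1346 (2.34%) were lower. Among the 25763 genes with a mean over 5 FPKM in either line, these were 7.82% and 5.22%. An adjusted p under 0.05 in addition was reached by 1065 of the higher genes (1.85% of those tested) and 514 of the lower genes (0.894%). In every called gene both libraries of one line lay above both of the other. That alone was common, since 18.2% of all tested genes had both GhTM-1 libraries on top and 24.6% had both at the bottom. The study reported the opposite balance for this comparison at the same limits, with more genes lower than higher in GhTM-1. It used ANOVA, on genes with a *G. barbadense* ortholog. A limma fit of all 16 libraries on such genes gave 1578 higher and 1143 lower. The cause of the difference was not tested.

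The higher genes differed by a median of 1.21 on the log2 scale (quartiles 0.91 and 1.81), and the lower genes by −1.08 (quartiles −1.53 and −0.85). The median standard error of these differences was 0.24 in both directions. The median over all tested genes was −0.03. A ratio over 8 was seen for 313 of the higher genes and 111 of the lower genes. Of the higher genes, 52 were listed at 0 in both GhMD17 libraries, and of the lower genes 20 were listed at 0 in both GhTM-1 libraries. The tail of large differences was therefore longer on the side of GhTM-1, as the plot of log2 differences shows.

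**Figure D1:**
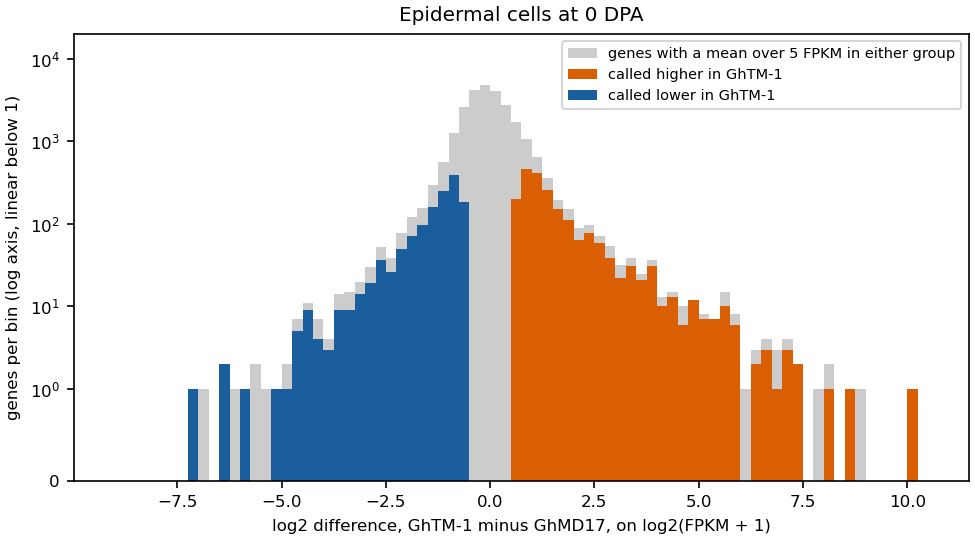
Number of genes by the log2 difference between GhTM-1 and GhMD17 epidermal cells at 0 DPA (x axis, bins of log2(FPKM + 1); y axis, genes per bin on a log scale). Gray bars are the 25763 genes with a mean over 5 FPKM in either line, orange bars the 2014 genes called higher and blue bars the 1346 called lower in GhTM-1, and differences of a ratio over 8 are more frequent on the right (313 genes) than on the left (111 genes).

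These counts depended on the libraries that set the spread. With the 4 libraries of 0 DPA alone, the calls numbered 1297 on the higher and 936 on the lower side, but only 1 and 0 of them also had an adjusted p under 0.05. A one-way ANOVA for each gene gave 594 and 423. The count of lower genes was 839 without GhTM-1 replicate 1, 830 without GhMD17 replicate 1 and 714 without GhMD17 replicate 2, and that of higher genes was 1345 to 1450 without any 1 library.

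The genes named here were those with the largest difference or the highest level among called genes with an adjusted p under 0.05. The files carry gene identifiers without names, so that only MYB and ARF genes annotated by the study have one. The chromosome is written in the identifier (A07 is chromosome 7 of the A subgenome), and 1Z marks a gene outside the chromosomes.

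GhMYB25, the homolog of Arabidopsis *MYB106*, was among the genes with the largest difference. The copy Gohir.1Z049716 had 133 and 163 FPKM in GhTM-1, against 0 and 0.306 FPKM in GhMD17. The copy Gohir.D04G191100 had 211 and 271 FPKM in GhTM-1, against 0.196 and 1.30 FPKM in GhMD17. Both copies were thus abundant in the fiber-bearing line and close to 0 in the mutant. The log2 differences were 7.02 ± 0.17 (SE, adjusted p = 1.46e-05) and 7.18 ± 0.29 (adjusted p = 6.31e-05). The orthologs of these copies stood at 100 and 97.4 FPKM and at 133 and 160 FPKM in 0 DPA epidermal cells of Gb3-79. Reads of this line were mapped to the *G. barbadense* genome, so its FPKM rest on another reference.

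A pair of genes without a name held the largest differences among the higher genes with an adjusted p under 0.05. Gohir.A07G154400 had 2128 and 1162 FPKM in GhTM-1 against 0.523 and 8.37 FPKM in GhMD17, a log2 difference of 8.70 ± 0.76 (adjusted p = 0.00159). Gohir.D07G160800 had 2859 and 1197 FPKM against 0.369 and 29.2 FPKM, a log2 difference of 8.17 ± 1.23 (adjusted p = 0.0152). They were also among the most abundant of the higher genes, and their replicates differed more than those of GhMYB25. In both, GhMD17 replicate 2 stood above replicate 1.

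Gohir.D11G043200 resembled GhMYB25 in level, with 231 and 204 FPKM in GhTM-1 and 0 and 0.661 FPKM in GhMD17 (log2 difference 7.40 ± 0.24, adjusted p = 3.9e-05). Gohir.D02G159000 had 200 and 133 FPKM against 0 and 0.139 FPKM (7.27 ± 0.47 on the log2 scale, adjusted p = 0.000497). Gohir.D09G130200 had 166 and 74.1 FPKM against 0 and 0.187 FPKM (6.68 ± 0.71 on the log2 scale, adjusted p = 0.00392). Its ortholog in Gb3-79 was also close to 0 at 0 DPA, with 0 and 0.583 FPKM. Gohir.D02G159000, Gohir.A02G082000 and Gohir.A07G154400 have no paired ortholog to compare. Gohir.A02G082000 had 239 and 82.1 FPKM in GhTM-1, while both values of GhMD17 were 0 (adjusted p = 0.0326).

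The other genes named for their level were lower in GhMD17 but far from absent. Gohir.A13G177500 had 3252 and 3320 FPKM in GhTM-1 against 404 and 647 FPKM in GhMD17, a ratio of the means of 6.25 (adjusted p = 0.0304). Gohir.D10G116300 had 1391 and 1797 FPKM against 236 and 302 FPKM, a ratio of 5.92 (adjusted p = 0.00806). Among the 10 named higher genes, Gohir.A13G177500 missed the limit without GhMD17 replicate 1 (unadjusted P = 0.0154 in limma), and Gohir.A02G082000 missed it without GhTM-1 replicate 1 or either GhMD17 library (P up to 0.0142).

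The lower genes named for the largest differences, all with an adjusted p under 0.05, reached smaller mean levels than those named on the other side. Gohir.D13G010300 had 3.47 and 3.11 FPKM in GhTM-1 against 94.1 and 136 FPKM in GhMD17, a log2 difference of −4.73 ± 0.57 (adjusted p = 0.00607). Gohir.D06G184200 had 2.32 and 0.793 FPKM against 71.3 and 65.9 FPKM (−4.83 ± 0.53 on the log2 scale, adjusted p = 0.00432). Gohir.A07G093000 had 0.975 and 2.44 FPKM against 57.7 and 81.9 FPKM (−4.74 ± 0.41 on the log2 scale, adjusted p = 0.00142), and its ortholog was listed at 0 in both Gb3-79 libraries of 0 DPA. In each of these 3 genes the replicates lay close together compared with the difference between lines. Gohir.D07G033450 had 1.23 and 0 FPKM in GhTM-1 and 52.0 and 55.8 FPKM in GhMD17 (−5.20 ± 0.55 on the log2 scale, adjusted p = 0.00394).

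A further 4 were listed at 0 in both GhTM-1 libraries. Gohir.D10G231380 had 20.9 and 20.8 FPKM in GhMD17 (adjusted p = 0.000179). The others differed widely between the GhMD17 replicates, at 23.4 and 121 FPKM for Gohir.A08G253501 (adjusted p = 0.0322), 9.07 and 70.5 FPKM for Gohir.A11G132900 (adjusted p = 0.0332) and 12.1 and 43.8 FPKM for Gohir.D13G000580 (adjusted p = 0.00388). Replicate 2 was the higher library in all of these 3. The call was lost without either GhTM-1 library or GhMD17 replicate 2 for Gohir.A08G253501, and without either GhTM-1 library for Gohir.A11G132900 (unadjusted P up to 0.0123 and 0.0102 in limma).

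Abundant genes lower in GhTM-1 differed by smaller ratios. Gohir.D01G211900 had 160.5 and 137 FPKM in GhTM-1 against 876 and 943 FPKM in GhMD17, a ratio of 6.11 (log2 difference −2.61 ± 0.18, adjusted p = 0.000678). Gohir.D10G189500 had 281 and 271 FPKM against 804 and 777 FPKM (ratio 2.87, adjusted p = 0.0124). Gohir.A09G055500 had 353 and 263 FPKM against 771 and 933 FPKM (ratio 2.77, adjusted p = 0.0336). Gohir.D06G151700 had 395 and 331 FPKM against 815 and 1033 FPKM (ratio 2.54, adjusted p = 0.0401). The call was lost without GhTM-1 replicate 2 for Gohir.D06G151700, and without that library or GhMD17 replicate 2 for Gohir.A09G055500 (unadjusted P up to 0.0114 and 0.0104 in limma).

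**Figure D2:**
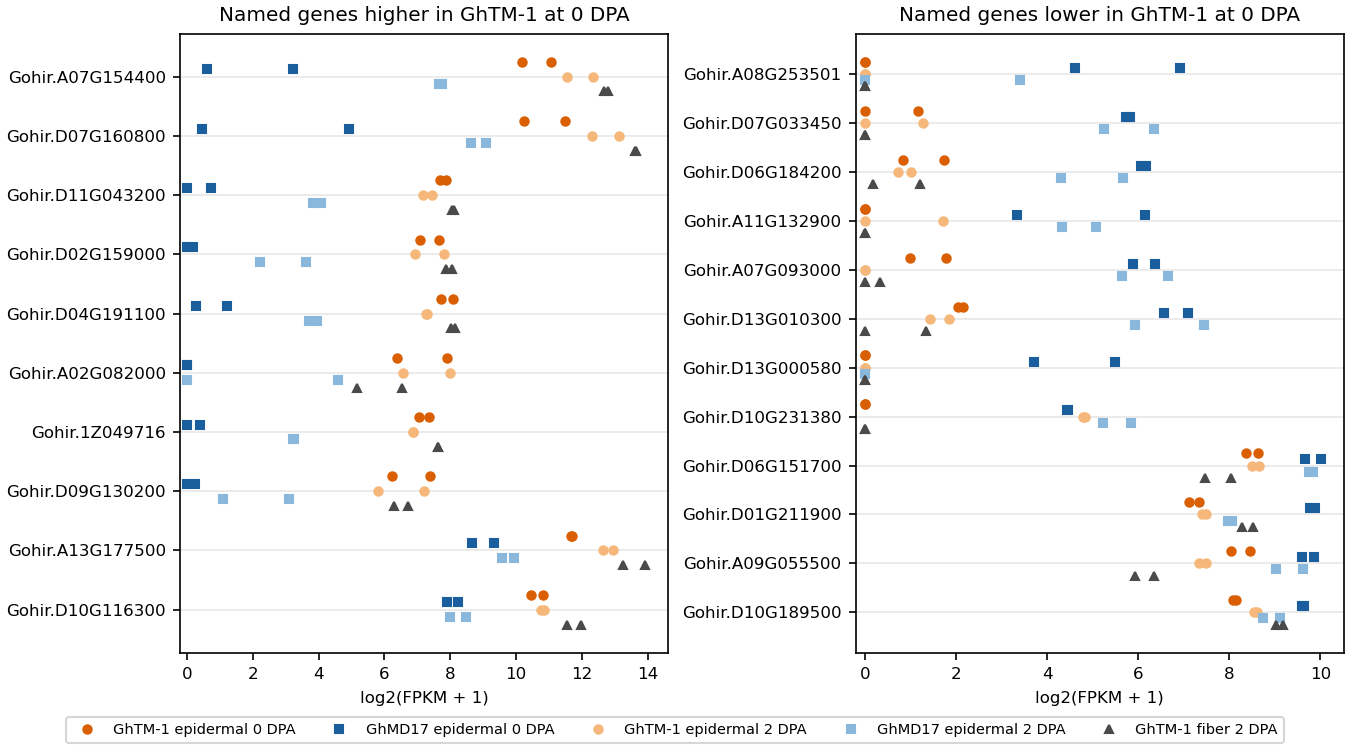
Levels of the 10 named genes higher (left) and the 12 named genes lower (right) in GhTM-1 at 0 DPA, as log2(FPKM + 1) on the x axis. Each point is 1 library, circles are GhTM-1 epidermal cells, squares GhMD17 epidermal cells and triangles GhTM-1 fiber cells, with epidermal cells of 0 DPA in dark and of 2 DPA in light color, and most GhMD17 squares on the left lie near 0 at 0 DPA and further right at 2 DPA.

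The 20 MYB genes are those that the study drew for their expression in these samples, so their counts are not independent evidence. At 0 DPA the calls took in 5 of the 20 as higher and 3 as lower in GhTM-1, against 3.5% and 2.34% of all genes tested. Of the genes with a mean over 5 FPKM, which 18 of the 20 had, the shares were 7.82% and 5.22%. The median log2 difference of the list was −0.41, on the other side of 0 from its leading members, and 13 of the 20 differences were below 0. Called members of one kind all differed in the same direction.

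*MYB4* in Arabidopsis represses genes of phenylpropanoid synthesis. Of its 4 cotton homologs, 3 were higher in GhTM-1 and the remaining one was not called. Gohir.D01G158500 had 13.5 and 25.8 FPKM in GhTM-1 and 1.52 and 0.261 FPKM in GhMD17 (log2 difference 3.47 ± 0.41, adjusted p = 0.00596). Gohir.D11G181000 had 7.71 and 7.37 FPKM against 0.839 and 1.61 FPKM (1.96 ± 0.35 on the log2 scale, adjusted p = 0.0279). Gohir.A01G167300 had 4.65 and 6.63 FPKM against 1.63 and 1.13 FPKM, and missed the adjusted threshold in limma (adjusted p = 0.0905). Gohir.A11G173900 had 6.96 and 6.01 FPKM against 5.78 and 5.03 FPKM. The GhTM-1 libraries lay above those of GhMD17 in all 4 homologs, as in 18.2% of all genes tested. With GhMYB25, 3 of these make up the 5 higher MYB genes. The call of Gohir.A01G167300 was lost when any of the 4 libraries was left out (unadjusted P up to 0.0415 in limma).

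*MYB16* is the closest relative of *MYB106* and acts in epidermal cell shape and cuticle formation in Arabidopsis. Its homologs differed in the opposite direction to GhMYB25. Gohir.A05G368200 had 10.7 and 14.5 FPKM in GhTM-1 against 35.3 and 37.2 FPKM in GhMD17 (log2 difference −1.47 ± 0.21, adjusted p = 0.0133). Gohir.A10G154700 had 5.64 and 10.2 FPKM against 18.8 and 16.5 FPKM (−1.11 ± 0.26 on the log2 scale, adjusted p = 0.0684). Gohir.D10G111200, at 2.91 and 5.80 FPKM against 11.9 and 6.15 FPKM, was not called. All 3 homologs were therefore detected in the epidermal cells of GhMD17, where GhMYB25 was near 0.

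Among the 3 *MYB17* homologs, Gohir.D08G151700 was called lower, with 8.30 and 9.58 FPKM against 16.1 and 16.7 FPKM (−0.81 ± 0.20 on the log2 scale, adjusted p = 0.0793). Gohir.A07G142700 and Gohir.D07G148500 differed by −1.13 ± 0.35 and −2.06 ± 0.65 on the log2 scale and were not called. *MYB66*, also known as WEREWOLF, patterns root epidermal cells in Arabidopsis. Its homologs include GhMYB109 and GhMYB2, and none of these 4 genes was called. Their log2 differences lay between −0.80 and −0.24, with 1.47 to 6.73 FPKM for GhMYB109 and 14.9 to 30.6 FPKM for GhMYB2 across the 4 libraries. The homologs of *MYB6*, *MYB73* and *MYB96* were not called. The calls of Gohir.A10G154700 and Gohir.D08G151700 were each lost without GhTM-1 replicate 1 or either GhMD17 library (unadjusted P up to 0.0256 and 0.0245 in limma).

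**Figure D3:**
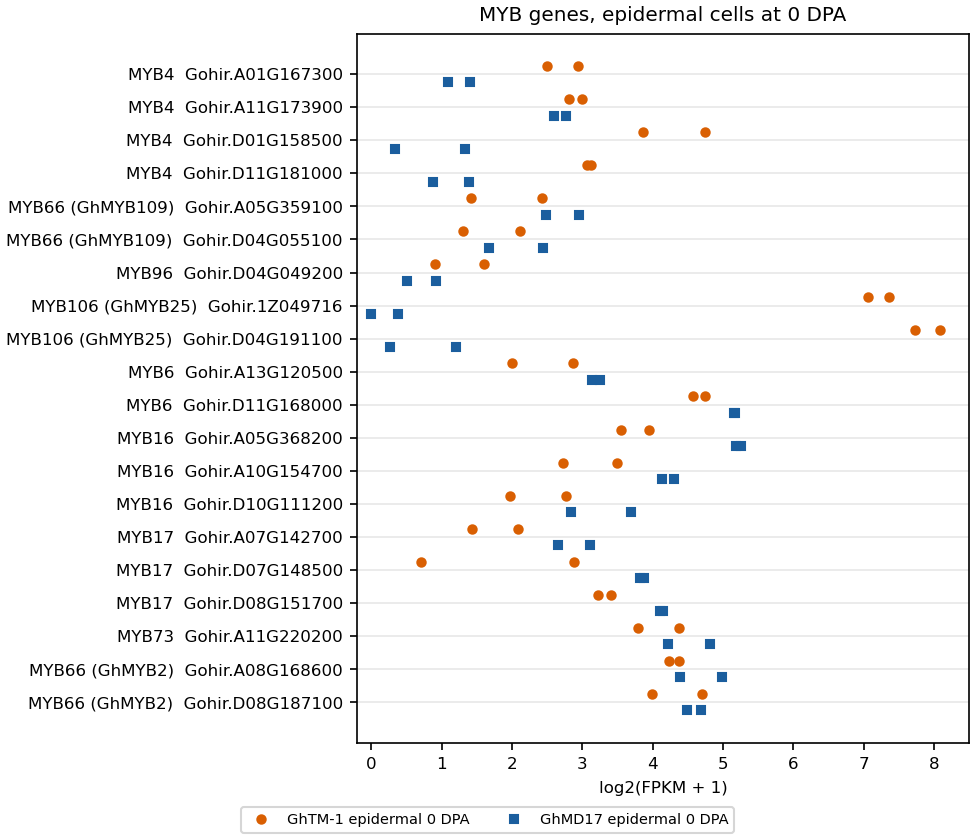
Levels of the 20 MYB genes in epidermal cells at 0 DPA as log2(FPKM + 1) on the x axis, 1 point for each library, with GhTM-1 as orange circles and GhMD17 as blue squares. The GhMYB25 copies are the widest separated, at 133 to 271 FPKM in GhTM-1 and at most 1.30 FPKM in GhMD17, while all 3 MYB16 homologs lie lower in GhTM-1.

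None of the 20 ARF genes was called higher in GhTM-1 and 6 were called lower. Lower calls made up 2.34% of all genes tested and 5.22% of those with a mean over 5 FPKM, which all 20 ARF genes had. This list too was drawn by the study on these samples. The differences were small and mostly of one sign: 18 of 20 were below 0, the median was −0.75 on the log2 scale, against −0.07 for all genes with a mean over 5 FPKM, and in 16 genes both GhTM-1 libraries lay below both GhMD17 libraries, as they did in 24.6% of all genes tested. For these genes an adjusted p under 0.05 was reached by 2. The same 2 genes, Gohir.D11G041800 and Gohir.D05G036600, were the ones still called whichever library was left out. The other 4 lost their call in at least 3 of these fits, with an unadjusted P of up to 0.0143 to 0.0545 in limma.

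*ARF2* in Arabidopsis is a repressor that limits cell division and organ size. Its 5 homologs had 13.3 to 72.7 FPKM across the 4 libraries, and both GhTM-1 libraries were below those of GhMD17 in each of them. Gohir.D11G041800 was called, with 28.1 and 25.4 FPKM in GhTM-1 against 59.2 and 49.1 FPKM in GhMD17 (log2 difference −0.99 ± 0.18, adjusted p = 0.0304). The other *ARF2* homologs differed by −0.53 to −0.77 and were not called.

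*ARF6* and *ARF8* act together as activators in flower maturation in Arabidopsis, and in each pair of homologs only the D copy was called. Gohir.D05G148500 (*ARF6*) had 5.41 and 6.97 FPKM against 13.5 and 12.8 FPKM, and Gohir.A05G146200 had 6.21 and 11.8 FPKM against 19.9 and 16.7 FPKM. Their log2 differences were nearly the same, at −0.989 ± 0.27 and −1.003 ± 0.33. Gohir.D12G051400 (*ARF8*) had 6.13 and 4.68 FPKM against 12.2 and 11.2 FPKM, and Gohir.A12G052900 had 13.2 and 8.64 FPKM against 25.9 and 18.8 FPKM. Here too the differences of −0.995 ± 0.28 and −0.979 ± 0.41 overlapped, so a call in one copy marks a smaller spread and not a larger difference.

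*ARF7* and *ARF19* are activators in lateral root formation in Arabidopsis. Gohir.D05G036600 (*ARF19b*) had 3.26 and 4.40 FPKM in GhTM-1 against 11.4 and 9.15 FPKM in GhMD17, the largest difference in the list at −1.22 ± 0.24 (adjusted p = 0.0361). Gohir.D07G016200 (*ARF19d*) had 6.14 and 6.06 FPKM against 12.8 and 11.8 FPKM (adjusted p = 0.0675). *ARF19a* (Gohir.A05G408200) was one of the 2 genes with a difference above 0, and its libraries overlapped, with 6.87 and 14.2 FPKM in GhTM-1 and 6.89 and 6.14 FPKM in GhMD17. The *ARF16* homolog Gohir.D10G213600 was lower at 17.3 and 23.7 FPKM against 38.1 and 42.6 FPKM (adjusted p = 0.0976). The A copy Gohir.A10G205300 had 18.4 and 23.7 FPKM against 37.5 and 41.2 FPKM and was not called. Their log2 differences were close, at −0.957 ± 0.25 for the D copy and −0.880 ± 0.26 for the A copy. *ARF5*, *ARF3*, *ARF7* and *ARF10* homologs were not called, and Gohir.D01G099100 (*ARF5*) was the other gene with a difference above 0.

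**Figure D4:**
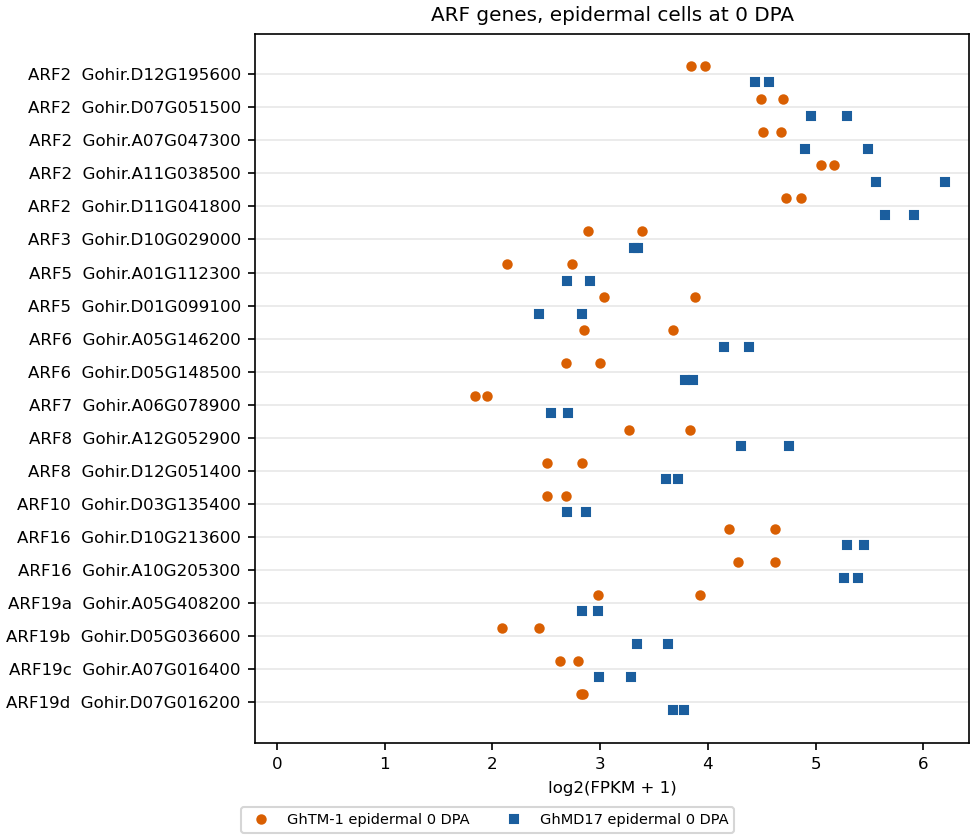
Levels of the 20 ARF genes in epidermal cells at 0 DPA as log2(FPKM + 1) on the x axis, 1 point for each library, with GhTM-1 as orange circles and GhMD17 as blue squares. In 16 genes both GhTM-1 points lie left of both GhMD17 points, and only the ARF5 gene Gohir.D01G099100 has both on the right.

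The libraries of 2 DPA took no part in the 0 DPA contrast, apart from the shared estimate of the spread. Of the 2014 genes higher in GhTM-1 at 0 DPA, 1021 (50.7%) were also higher in its epidermal cells at 2 DPA, and 7 were lower. They made up 58.4% of the 1749 genes called higher at 2 DPA (3.04% of those tested). Among the 25763 genes with a mean over 5 FPKM at 0 DPA, 1471 (5.71%) were called higher at 2 DPA. Of the 1346 lower genes, 552 (41.0%) were also lower at 2 DPA, and 4 were higher. These were 38.1% of the 1449 genes called lower at 2 DPA (2.52% of those tested), and of the 25763 genes 1350 (5.24%) were called lower. The sign was kept in 94.3% of the higher genes and 94.6% of the lower genes, whereas 39.6% and 60.4% of the genes over 5 FPKM had that sign at 2 DPA.

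The differences were smaller at 2 DPA, with medians of 0.84 and −0.72 on the log2 scale for the higher and lower genes. Since the genes were called on the 0 DPA values, a smaller median in other libraries is not a test of a change. The difference of the line contrast between the stages was tested for every gene. It had an adjusted p under 0.05 in 41 genes (0.0713% of those tested), of which 12 were called higher and 5 lower at 0 DPA. An unadjusted p under 0.05 in limma was seen in 3905 of the 57469 genes tested. If no gene changed, a share of about 0.05 would pass that limit. The count moved with the libraries, from 41 to between 182 and 343 when any 1 of the 4 was left out, and it was 17 with a filter on low values and 8 with a replicate block.

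GhMYB25 was among the 41. In GhMD17 at 2 DPA Gohir.1Z049716 had 8.51 and 8.27 FPKM and Gohir.D04G191100 had 12.1 and 14.4 FPKM, which was 7.27% and 8.52% of their mean in GhTM-1 at that stage. At 0 DPA the corresponding levels were 0.103% and 0.311%. Both GhMD17 replicates of 2 DPA thus lay above both of 0 DPA, and far below GhTM-1 at 116 and 115 FPKM and at 157 and 154 FPKM. The line difference fell from 7.02 to 3.63 ± 0.17 and from 7.18 to 3.46 ± 0.29 on the log2 scale (adjusted p of the change 0.0126 and 0.0378). For Gohir.D04G191100 the latter was 0.063 without GhTM-1 replicate 1 and 0.0621 without replicate 2. Gohir.D11G043200 followed the same course, with 13.3 and 15.98 FPKM in GhMD17 at 2 DPA against 173 and 144 FPKM in GhTM-1 (adjusted p of the change 0.022).

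Of the 10 named higher genes, 9 were called higher at 2 DPA as well, all but Gohir.D07G160800. Some other genes at under 1% of GhTM-1 in GhMD17 at 0 DPA had higher levels there at 2 DPA. Gohir.A07G154400 had 212 and 200 FPKM in GhMD17 at 2 DPA, which was 5.03% of GhTM-1. Gohir.D07G160800 had 395 and 543 FPKM, or 6.68% of GhTM-1. For these genes the change in the line difference had an adjusted p of 0.328 and 0.695. To describe such genes as a group, 32 were taken with less than 1% of the GhTM-1 level in GhMD17 replicate 1 at 0 DPA and over 20 FPKM in all 4 GhTM-1 epidermal libraries. In replicate 2 of GhMD17 at 0 DPA, which was not used to choose them, their median level was 0.511% of GhTM-1. At 2 DPA it was 7.10% in replicate 1 (quartiles 5.50% and 9.18%) and 6.32% in replicate 2 (quartiles 3.66% and 9.33%). The source of the reads of these genes in GhMD17 at 2 DPA was not tested. Of the 32 genes, 21 were below 1% in replicate 2 at 0 DPA, and 3 and 4 were at 2 DPA. Among the named genes, Gohir.A02G082000 had 0 and 22.9 FPKM in GhMD17 at 2 DPA. Gohir.A11G276700, picked out after its values were seen, was at 0 in all 4 GhMD17 libraries. The change was tested for each gene on its own, and it passed an adjusted p of 0.05 in 3 of the 32, against 0.0713% of all genes tested. The 0 DPA value used to choose the 32 genes enters that test, so their share is not independent evidence.

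Among the 12 named lower genes, 7 were lower at 2 DPA as well. Gohir.D01G211900 was not one of them, since it stood at 252 and 265 FPKM in GhMD17 at 2 DPA against 178 and 169 FPKM in GhTM-1 (adjusted p of the change in the line difference 0.0707). Gohir.D10G231380 was present in GhTM-1 at 2 DPA with 27.6 and 26.8 FPKM, against the 56.2 and 36.5 FPKM of GhMD17 (adjusted p of the change 0.022).

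The lower MYB genes were not called at 2 DPA. The *MYB16* homolog Gohir.A05G368200 had 19.0 and 26.6 FPKM in GhTM-1 and 28.2 and 33.6 FPKM in GhMD17, and Gohir.A10G154700 had 17.7 and 19.0 FPKM against 15.7 and 20.4 FPKM. The change of the line difference was not detected in either (adjusted p = 0.477 and 0.537). Of the ARF genes, only the *ARF16* homologs were lower at 2 DPA, and the list had a median of −0.44.

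Fiber and epidermal cells of GhTM-1 at 2 DPA share no library with the 0 DPA comparison, only the estimate of the spread. A gene of small spread is easier to call in every comparison. The background shares here and in the line comparison of 2 DPA were not matched for that. Of the 2014 genes higher in GhTM-1 than in GhMD17, 314 (15.6%) were higher in fiber than in epidermal cells and 83 (4.12%) were lower. Among all genes tested, 1.37% were higher and 5.19% lower in fiber, and among those over 5 FPKM at 0 DPA 2.49% and 11%. Of the 1346 lower genes, 384 (28.5%) were lower in fiber and 13 (0.966%) were higher. The median fiber difference was 0.43 on the log2 scale for the higher genes and −0.54 for the lower genes, against −0.17 for all genes over 5 FPKM. The directions therefore went together for more genes than in the background, although most called genes at 0 DPA were not called between fiber and epidermal cells. In all 3 comparisons 244 genes were called higher and 238 lower. Of the 1021 genes higher in both line comparisons, 28 were lower in fiber, and of the 552 lower in both, 3 were higher in fiber. The line and fiber comparisons of 2 DPA share the GhTM-1 epidermal libraries, with opposite sign, so they are not independent.

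GhMYB25 had 196 and 199 FPKM (Gohir.1Z049716) and 281 and 260 FPKM (Gohir.D04G191100) in fiber cells. The copy Gohir.1Z049716 was called higher than in epidermal cells (log2 difference 0.77 ± 0.17, adjusted p = 0.0469) and Gohir.D04G191100 was not (0.79 ± 0.29, adjusted p = 0.174). Epidermal cells left after the fibers had been cut off still held 115 to 157 FPKM of these copies. Gohir.1Z049716 was the only one of the 10 named higher genes called in that comparison. Gohir.D07G160800 had 12843 and 12610 FPKM in fiber and 8968 and 5090 FPKM in epidermal cells, which did not pass (adjusted p = 0.783). Of the 12 named lower genes, Gohir.D10G231380 and Gohir.A09G055500 were lower in fiber and Gohir.D01G211900 was higher. The latter had 309 and 365 FPKM in fiber against 178 and 169 FPKM in epidermal cells (log2 difference 0.95 ± 0.18, adjusted p = 0.0313), the opposite direction to its difference at 0 DPA.

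Both *MYB16* homologs that were lower in GhTM-1 at 0 DPA were also lower in fiber cells. Gohir.A05G368200 had 6.03 and 7.09 FPKM and Gohir.A10G154700 2.59 and 2.70 FPKM, with log2 differences to epidermal cells of −1.64 ± 0.21 and −2.41 ± 0.26 (adjusted p = 0.00882 and 0.00482). Of the 20 ARF genes 14 were lower in fiber and 0 higher, where 5.19% of all genes tested and 11% of those over 5 FPKM at 0 DPA were lower. The study drew these *MYB16* and ARF genes from its genes up- or down-regulated in fiber, in these same libraries. Their fiber differences therefore restate that choice and are not independent evidence. Among the 6 ARF genes lower at 0 DPA, Gohir.D11G041800 had 12.5 and 10.1 FPKM in fiber against 31.3 and 37.0 FPKM in epidermal cells (−1.51 ± 0.18 on the log2 scale, adjusted p = 0.00659).

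**Figure D5:**
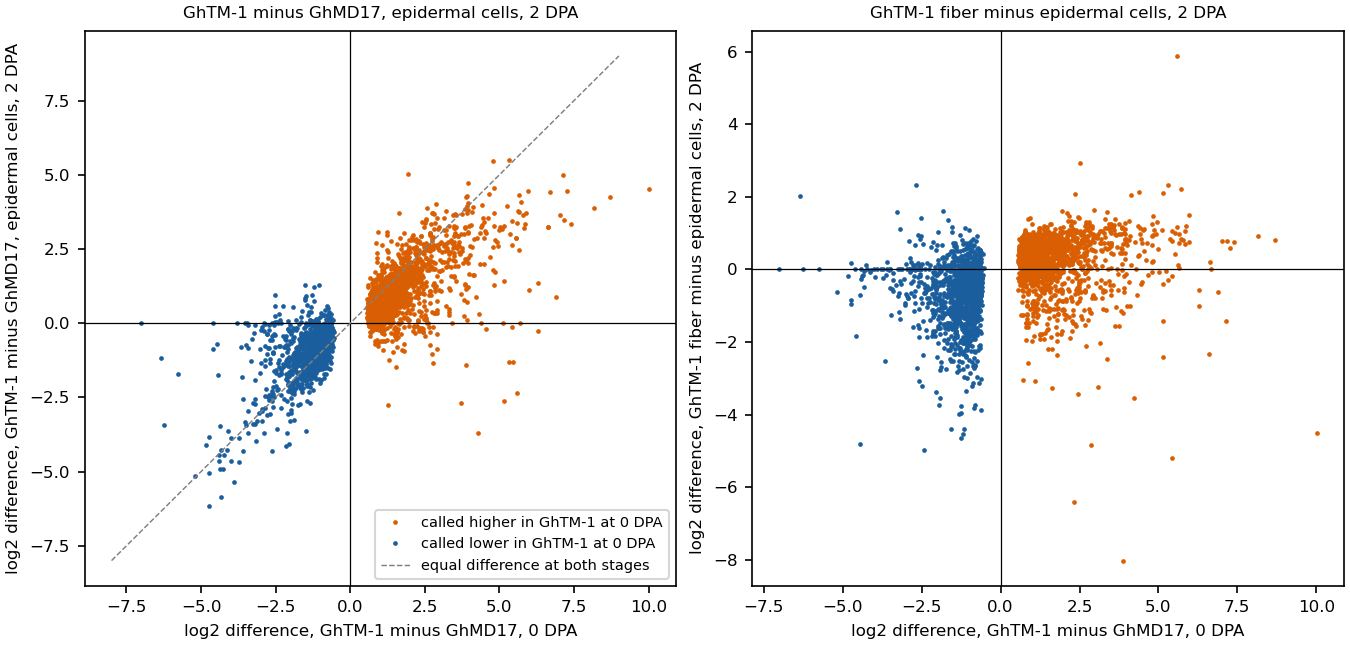
Log2 differences of the 3360 genes called at 0 DPA (x axis) against their log2 differences in libraries of 2 DPA (y axes), for GhTM-1 minus GhMD17 epidermal cells on the left and for GhTM-1 fiber minus epidermal cells on the right. Each point is 1 gene, orange where higher and blue where lower in GhTM-1 at 0 DPA. The sign is kept in 94.3% and 94.6% of the genes on the left and in 77.9% and 82.2% on the right. Among all genes over 5 FPKM at 0 DPA, 39.6% and 60.4% had that sign on the left and 38.7% and 61.3% on the right.

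The called genes were spread over all chromosomes. The share of tested genes called higher ranged from 2.21% on D03 to 4.85% on A09, and the share called lower from 1.57% on A04 to 2.98% on D06. The subgenomes were alike, with 3.58% higher and 2.25% lower genes in the A subgenome and 3.45% and 2.43% in the D subgenome. A12 and D12, where loci of naked-seed mutants have been mapped, had 2.58% and 3.03% of genes higher and 2.25% and 2.91% lower. Genes without a *G. barbadense* ortholog made up 27.1% of the higher and 21.2% of the lower genes, against 27.4% of all genes tested.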

How the data were processed

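LCM epidermal and fiber RNA of cotton ovules was sequenced by the authors, who mapped reads of GhTM-1 and GhMD17 to the *G. hirsutum* TM-1 genome v2.0 with TopHat 2.1.1, kept unique reads and computed FPKM per gene with Cufflinks 2.2.1. The submitters' processing notes also name SAMtools 1.5. The FPKM values were used as the authors deposited them, joined by gene identifier, and every value column was assigned to a library. The tables carry no read count per gene, so no counting interval is given, and precision is read from the 2 replicates of each group. Nothing in the labels pairs replicates across lines.

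Genes with an FPKM above 0 in any of 10 *G. hirsutum* libraries were tested as log2(FPKM + 1) with limma 3.58.1 in R 4.3.3 (lmFit on 5 group means, eBayes with trend, two-sided contrasts, Benjamini-Hochberg adjustment over all genes tested). All 5 groups share 1 spread per gene. Fold changes on this scale understate changes of low genes. Limits were those of the study, which names ANOVA without its groups. Named genes were all MYB and ARF genes listed, and among called genes with an adjusted p under 0.05 and libraries that do not overlap the 8 with the largest log2 difference and the 4 with the highest mean, in each direction. Genes and lists were chosen with earlier results of these data known. Lists by product name could not be used, because 0 gene identifiers matched the reference table given. The code was checked on simulated data with known changes, which is no check of the calls themselves. Alternatives were another pseudocount, filter, scaling, set of libraries or limit, a replicate block and leaving out each library. Plots used matplotlib 3.10.9.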

Additional observations from a re-analysis of the deposited data

Results flagged for a closer look

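For 4 named genes the difference between GhTM-1 and GhMD17 epidermal cells itself differed between 0 and 2 DPA, by the limma contrast of both differences with an adjusted p under 0.05. The 0 DPA difference minus the 2 DPA difference was 3.39 ± 0.24 (log2 scale, SE) for the GhMYB25 copy Gohir.1Z049716 and 3.72 ± 0.41 for the copy Gohir.D04G191100. It was 4.06 ± 0.34 for Gohir.D11G043200 and −3.73 ± 0.32 for Gohir.D10G231380. The first 3 genes were near 0 in GhMD17 at 0 DPA and stood at 7.27%, 8.52% and 9.26% of GhTM-1 at 2 DPA. The source of their reads in GhMD17 at 2 DPA was not tested. Gohir.D10G231380 was listed at 0 in GhTM-1 at 0 DPA and had 27.6 and 26.8 FPKM there at 2 DPA. With a pseudocount of 0.1 the adjusted p was 0.109 for Gohir.D04G191100 and 0.118 for Gohir.D11G043200, and with a replicate block it was 0.0659 and 0.0577 for these and 0.0577 for Gohir.D10G231380. Without the trend it was 0.0645 for Gohir.D04G191100, and without GhTM-1 replicate 1 or 2 it was 0.063 or 0.0621 for that gene. It stayed under 0.05 for Gohir.1Z049716 in these fits. Groups of 2 libraries are too small to look for single libraries far from the others.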

How the results depend on the processing

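Of the 34 named genes called at 0 DPA, 21 kept the call whichever library was left out, including both GhMYB25 copies, and 952 comparisons of named genes with alternatives gave 4 changes of sign. Most of these comparisons could not change a sign. Filters, limits, a replicate block, ANOVA, the fit without trend and fits with fewer or more groups leave the log2 difference as it is. Only another pseudocount, scaling or leaving out a library could change it. The 4 changes were in genes not called. Without 1 library the log2 difference ranged from −0.75 to 0.067 for Gohir.D04G055100 (0.067 without GhTM-1 replicate 1 and 0.044 without GhMD17 replicate 1), from −0.59 to 0.11 for Gohir.D08G187100 and from −0.44 to 0.059 for Gohir.D10G029000. No called gene was called in the other direction under any alternative. With genes left out whose replicates stood at 0 and above 100 FPKM (32 in GhTM-1 and 28 in GhMD17, an alternative chosen after seeing the data), the counts were the same. None of these genes was among the called ones, so leaving them out could not change the counts.

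Genes called higher and lower at 0 DPA numbered 1297 and 936 with only the 4 libraries, 594 and 423 with one-way ANOVA, 1065 and 514 with an adjusted p under 0.05, 1345 to 1450 and 714 to 998 without 1 library, and 891 lower with a ratio over 2. Without a minimum FPKM they were 2483 and 1913, and libraries rescaled by the median ratio gave 1916 and 1484. MYB genes called lower were 5 with the filter on low values and with all 16 libraries, 1 with the adjusted p, 2 with the 4 libraries or a ratio over 2 and 1 to 4 without 1 library, and 3 were called higher with a minimum of 10 FPKM. Leaving out any 1 library left 4 MYB genes called higher. ARF genes called lower were 2 with the adjusted p and 2 to 5 without 1 library, and 0 to 1 were called higher. Genes called in the same direction at 2 DPA were 536 and 224 with the adjusted p, 745 to 807 and 323 to 414 without 1 library, and 354 lower with a ratio over 2. Genes sharing the direction in fiber were 84 and 139 with the adjusted p, 75 and 206 with a ratio over 2, and 239 to 276 and 195 to 270 without 1 library. Genes whose line difference changed between stages numbered 17 with the filter, 127 with all 16 libraries and 182 to 343 without 1 library. The cause of these shifts was not tested.

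At 0 DPA the replicate differences of the lines correlated at −0.03 across 39062 genes, so the numbers were not taken as pairs. With a replicate block 2070 genes were higher and 1402 lower, 9 ARF genes were lower, and 8 genes changed between stages. FPKM carry no read count per gene, so genes with low values could not be judged by counting error.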
